A study of Homo sapiens with 48 samples.

Results

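Sestrins and their neighbours are a set of 10 genes, of 14685 in the count tables, that restrain the growth kinase complex mTORC1 or carry out its orders on translation. They were taken by name: the sestrins SESN1, SESN2 and SESN3, the stress-induced inhibitor DDIT4, the tuberous sclerosis genes TSC1 and TSC2, the translation effectors EIF4EBP1, EIF4EBP2 and RPS6KB1, and the stress protein gene NIBAN1. All 10 were measured in all 48 libraries. HEK293T, a line derived from human embryonic kidney and labelled WT, was transfected in every group with NCBP1-Halo, a plasmid for NCBP1, the larger cap-binding protein of the nucleus, fused to the HaloTag. In the T-REX group the photocaged probe Ht-PreHNE, bound to the Halo domain, released the lipid-derived electrophile HNE under light, so that NCBP1 itself was modified (HNEylation). The controls were light alone (labelled UV), the probe without light (labelled Pre) and DMSO, each with the same plasmid. For light alone, the label names UV only, while the study's definition of its T-REX controls gives this group the probe as well as light. Which of these holds is not settled by the sources used here, and every comparison with light alone carries that doubt. Cells were harvested 3, 6 or 12 h after the reaction, with 4 biological replicates per group and time. No group without the plasmid was analysed here, so every level below is that of cells overexpressing NCBP1.

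mTORC1 is a lysosome-bound kinase complex that promotes protein synthesis when amino acids, growth factors and energy suffice. Sestrins are stress-induced proteins that hold it back through the GATOR complexes, which control the Rag GTPases that bring mTORC1 to the lysosome, and SESN2 is known as a leucine sensor. TSC1 and TSC2 form the complex that switches off Rheb, the GTPase that activates mTORC1, and DDIT4 (REDD1) frees that complex under low oxygen or stress. Downstream, active mTORC1 phosphorylates the 4E-BPs, which otherwise hold the cap-binding factor eIF4E, and the kinase S6K1, the product of RPS6KB1.

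The libraries held 23952455 to 37099535 counts (median 29405598.5), and levels are given as CPM (counts scaled to a common library size) after TMM scaling, with factors of 0.954 to 1.05. NCBP1 took 3.09 to 8.99% of the counts, and not evenly over the groups. At 12 h it read 51940 to 63930 CPM in T-REX and 52800 to 74040 CPM with the probe alone. It read 34590 to 49370 CPM with light alone and 30800 to 40600 CPM in DMSO. At 6 h the T-REX libraries (65770 to 80150 CPM) also lay above those of light alone (31600 to 52730 CPM) and DMSO (47410 to 61380 CPM). At 3 h T-REX replicates 1 to 3 (92200, 76430 and 79220 CPM) lay above every control library, and replicate 4 (55600 CPM) did not. The controls then read 56090 to 70880 CPM with light alone, 59400 to 69090 CPM with the probe alone and 46550 to 61420 CPM in DMSO. The part of NCBP1 levels in the results was not tested. The HEK293T markers IRS4, LIN28B, NEFM and NEFL were present in all libraries, PAX2 was not in the tables, and of 6 markers of other cell types only COL1A1 was listed, at 2.13 to 6.07 CPM. A gene was called at an edgeR quasi-likelihood p, adjusted by the Benjamini-Hochberg method over all genes of a comparison, of at most 0.05, from 4 libraries against 4, and errors of log2 fold changes are standard errors. Replicate 3 of DMSO at 12 h and replicate 3 of light alone at 6 h were the highest of their groups in SESN3 and EIF4EBP2. Of these values, only EIF4EBP2 in DMSO lay far from the rest by Dixon's test, given below. The values of SESN3, SESN2 and EIF4EBP2 that rest on them are also given without them.

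Per kilobase of exon, EIF4EBP2 (mean over all libraries 57.8 CPM per kb) and SESN2 (50.5) were the most abundant of the 10 genes. SESN3 (20.9), EIF4EBP1 (18.4), RPS6KB1 (17.9), SESN1 (14.3) and DDIT4 (13.8) followed, and TSC1 (7.0) and TSC2 (3.58) were lower. NIBAN1, at 0.391 CPM per kb and 59 to 259 counts per library, was by far the least abundant, and its values carry the largest counting error.

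**Figure D1:**
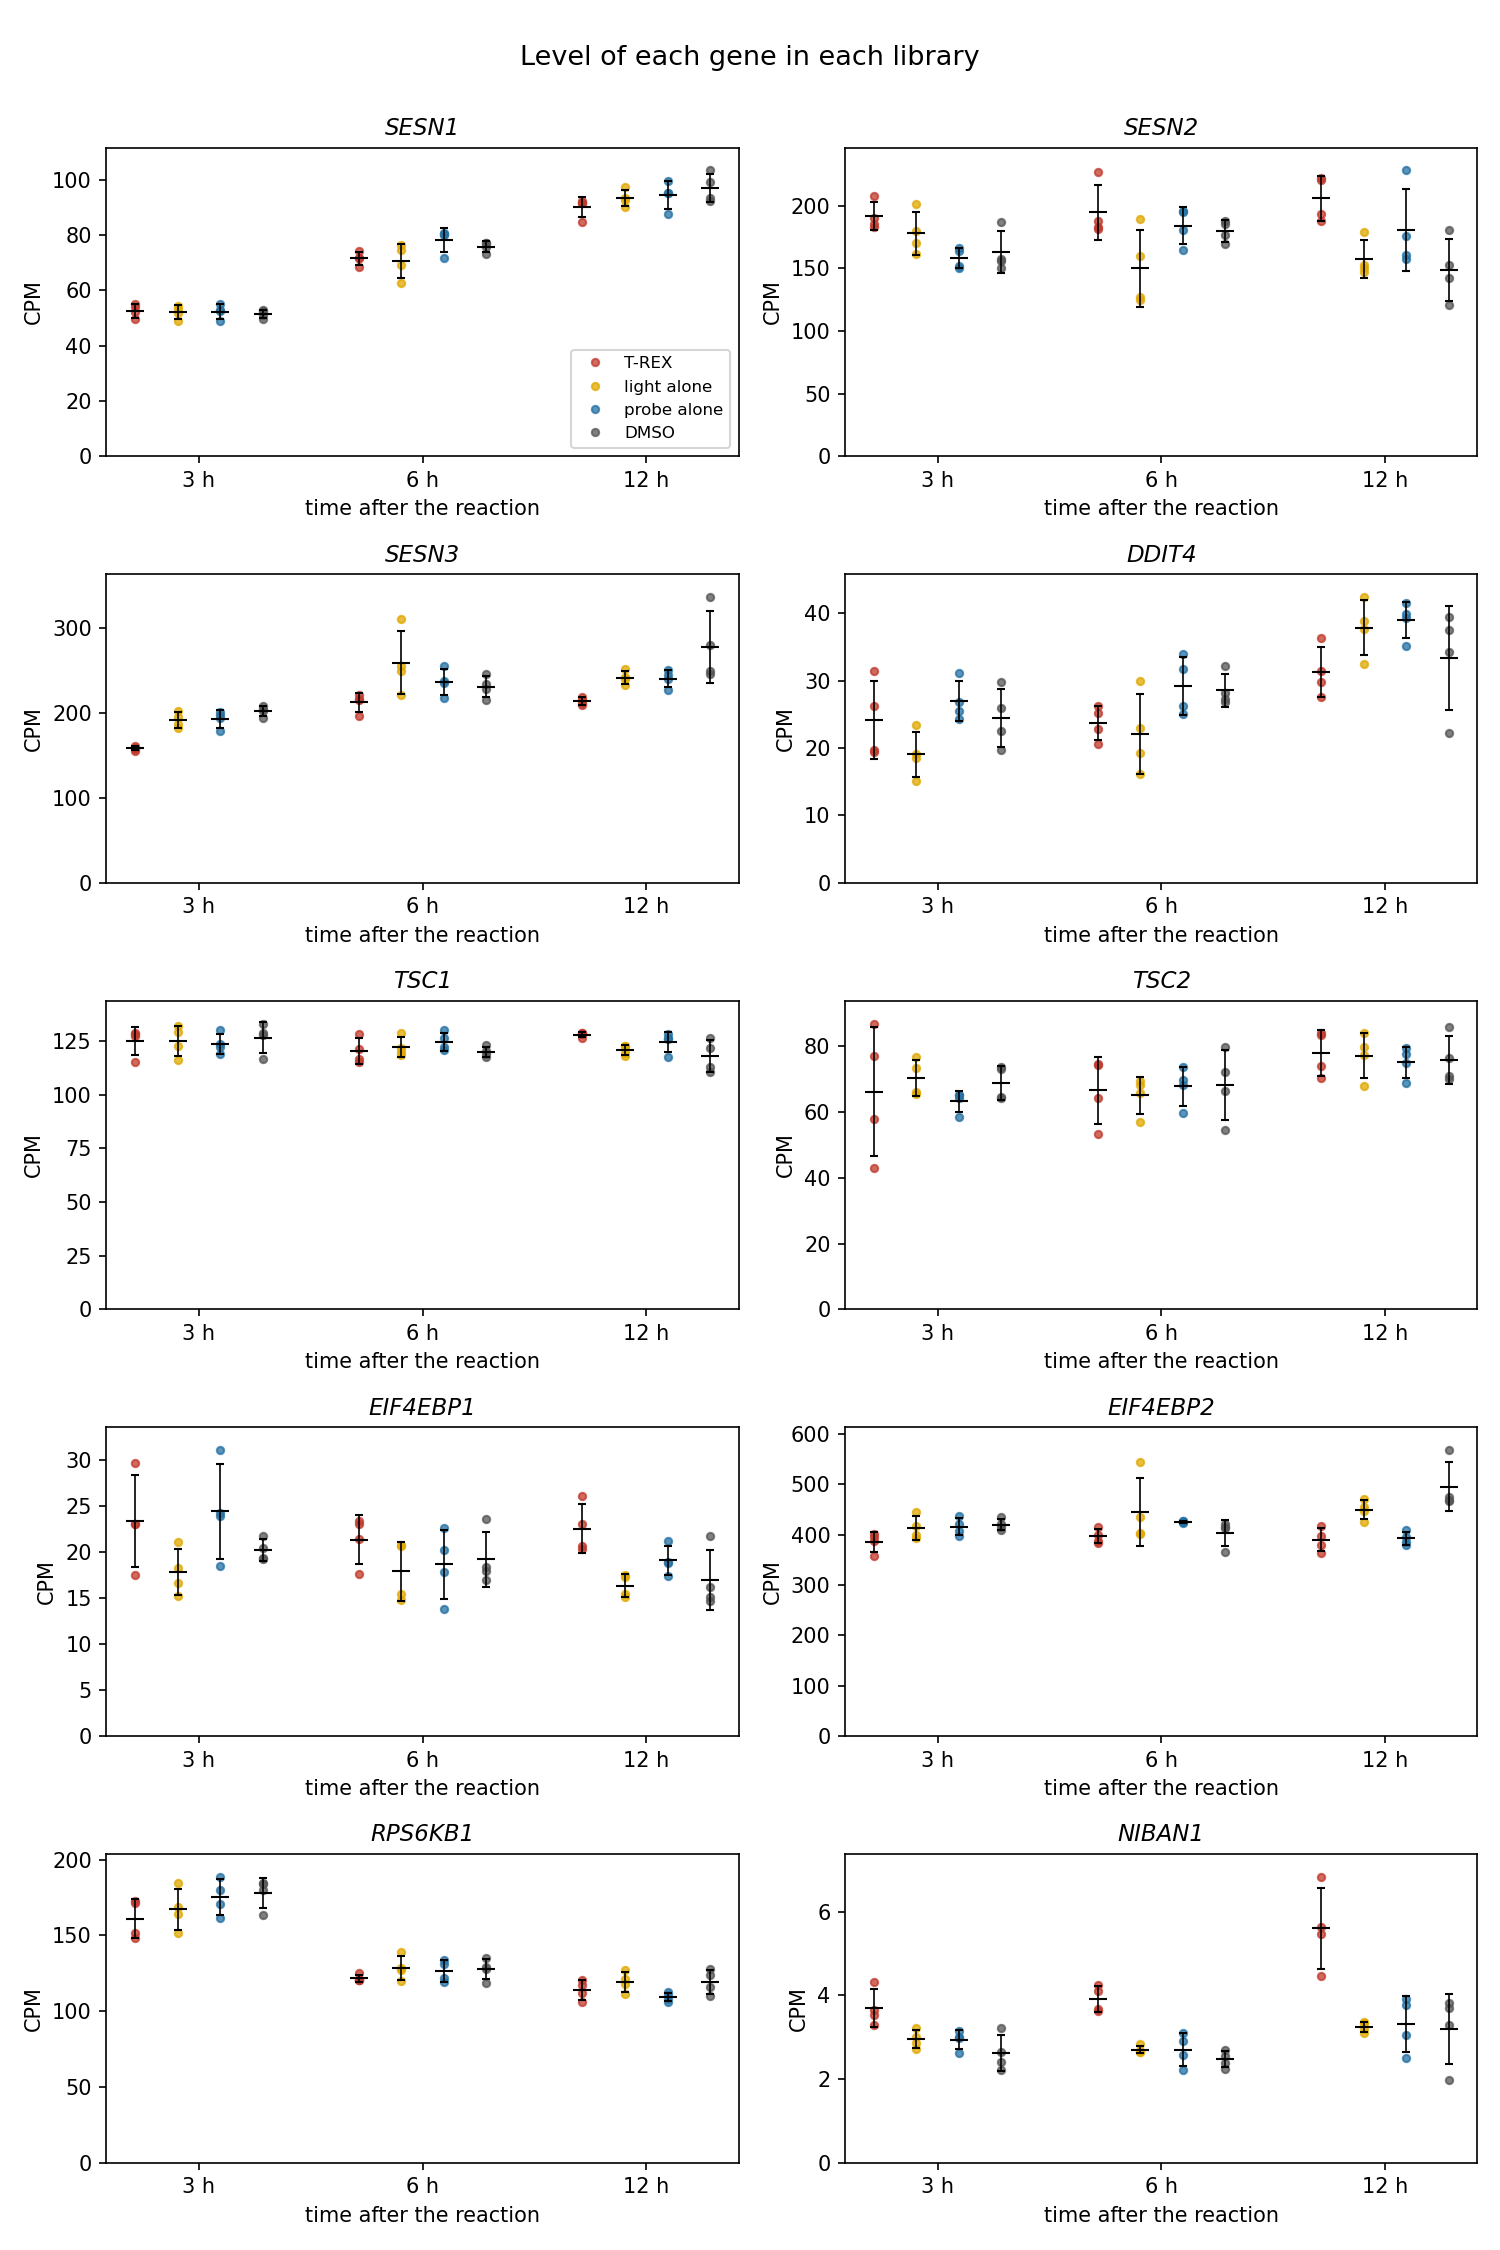
Level of each of the 10 genes in CPM (y axis, from 0) at 3, 6 and 12 h (x axis); each point is 1 library, coloured by group, and the bars give the mean ± SD of 4 libraries. SESN1 climbs from about 52 CPM at 3 h to 90 to 97 CPM at 12 h in every group, SESN3 is lowest in T-REX at 3 h, and NIBAN1 in T-REX lies above every control library at each time.

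At 3 h SESN3 was the gene of the set that fell in T-REX cells, to between 0.78 and 0.83 of the control level. SESN3 (ENSG00000149212), the sestrin placed under FOXO transcription factors in other systems, stood at 158.7, 157.7, 155.1 and 160.8 CPM in the 4 T-REX libraries. It stood at 181.6, 194.8, 202.3 and 186.7 CPM with light alone, at 197.8, 201.4, 194.1 and 178.1 CPM with the probe alone, and at 202.4, 204.5, 194.5 and 208.0 CPM in DMSO. All 4 T-REX libraries thus lay below all 12 control libraries, and they were spread over less than 6 CPM.

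The log2 fold change of SESN3 at 3 h was -0.28 ± 0.0478 against light alone (0.825-fold, edgeR adjusted p = 0.00987), -0.27 ± 0.0478 against the probe alone (adjusted p = 0.0094), and -0.35 ± 0.0478 for DMSO as the control (adjusted p = 0.000654). In each of these comparisons it was the only called gene of the 10, where 0.197% of all genes were called against light alone, 1.05% against the probe alone and 5.99% against DMSO. The 3 comparisons share the T-REX libraries. It was also the only gene of the set called with the same sign against 2 or more controls (the rule of 2 controls) at 3 h, which 0.947% of all genes met. The study itself singled out SESN3 on these same libraries, so its call here is not independent evidence.

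That against light alone did not survive leaving out light alone replicate 3 (-0.26, adjusted p = 0.0715), light alone replicate 2 (adjusted p = 0.0505) or T-REX replicate 2 (adjusted p = 0.0507). The call against the probe alone was lost without probe alone replicate 1 (adjusted p = 0.0544) or replicate 2 (adjusted p = 0.0542), and both were lost when only the pair of groups compared was fitted (adjusted p = 0.184 and 0.104). An antisense gene, AP000787.1, overlaps exons of SESN3, and whether the counting used the strand is not given in the sources used here. It was counted at 4.72 ± 0.753 CPM in T-REX and 4.44 to 5.13 CPM in the control means at 3 h, with log2 fold changes of -0.12 to 0.10.

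At 6 h SESN3 stood at 216.8, 214.8, 221.6 and 196.3 CPM in T-REX, against group means of 258.9 ± 37.3 with light alone, 236.2 ± 15.4 with the probe alone and 230.9 ± 12.7 in DMSO (SD, n = 4 each). The groups overlapped and no comparison passed the test, with log2 fold changes of -0.29, -0.15 and -0.12. The light alone group held the highest library, replicate 3, at 310.0 CPM. Without it the difference from light alone was -0.19 (adjusted p = 0.278), and without replicate 4 of that group, the one nearest to T-REX, the difference from light alone was called (-0.36, adjusted p = 0.0103).

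At 12 h the 4 T-REX libraries, at 211.9, 219.2, 209.0 and 215.1 CPM, again lay below all 12 controls. SESN3 read 233.2 to 251.8 CPM with light alone, 226.6 to 250.7 CPM with the probe alone, and 246.0, 279.4, 336.4 and 248.8 CPM in DMSO. It fell against DMSO (-0.38 ± 0.0704, adjusted p = 0.00148), while the differences from light alone (-0.17, adjusted p = 0.275) and the probe alone (-0.17, adjusted p = 0.348) did not pass. Without DMSO replicate 3 the change against DMSO was -0.27 (adjusted p = 0.000209), and the same 2 other differences, -0.17 each, were then called (adjusted p = 0.0142 against light alone and 0.0222 against the probe alone). Both were also called when only the pair of groups compared was fitted (adjusted p = 0.00103 and 0.0136). The same held with the deposited factors of unwanted variation as covariates (adjusted p = 0.000417 and 0.000625). The antisense gene AP000787.1 also read lower than in DMSO at 12 h (-0.50 ± 0.145, adjusted p = 0.0284), at 5.82 against 8.22 CPM, and its part in the SESN3 counts was not tested.

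SESN2 (ENSG00000130766), a sestrin known as a target of ATF4, NRF2 and p53, leaned the other way. At 3 h it stood at 185.8, 190.3, 208.3 and 183.4 CPM in T-REX, against 161.3 to 201.5 CPM with light alone, 150.6 to 166.4 CPM with the probe alone and 150.6 to 187.5 CPM in DMSO. T-REX lay above every probe alone library and overlapped the other controls. The log2 fold changes were 0.11 (adjusted p = 0.545), 0.29 (adjusted p = 0.0547) and 0.24 (adjusted p = 0.0555), so none was called. Both of the last were called without DMSO replicate 3 (adjusted p = 0.0268 and 0.00746), light alone replicate 1 (0.0472 and 0.041) or light alone replicate 4 (0.0485 and 0.0442), and the difference from the probe alone also without probe alone replicate 4 (0.0444), all edgeR adjusted p.

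At 12 h SESN2 read 221.9, 188.1, 193.2 and 221.0 CPM in T-REX and 152.5, 142.1, 121.0 and 180.4 CPM in DMSO. The T-REX libraries lay above all DMSO and all light alone libraries (147.2 to 179.5 CPM), but not above the probe alone libraries (157.7 to 228.4 CPM). SESN2 rose against DMSO (0.47 ± 0.123, 1.38-fold, adjusted p = 0.025), and not past the threshold against light alone (0.39, adjusted p = 0.157) or the probe alone (0.19, adjusted p = 0.636). The call against DMSO was lost without any 1 of 5 libraries: DMSO replicate 1 (adjusted p = 0.0515), DMSO replicate 2 (adjusted p = 0.0551), DMSO replicate 3 (0.39, adjusted p = 0.108), T-REX replicate 1 (adjusted p = 0.0685) and T-REX replicate 4 (adjusted p = 0.0617). The difference from light alone was called without probe alone replicate 4 (adjusted p = 0.0494) and when only those groups were fitted (adjusted p = 0.0198).

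The balance of these 2 sestrins combines both differences, of which that of SESN2 was not called at 3 h. The ratio of SESN2 to SESN3 CPM at 3 h was 1.17, 1.21, 1.34 and 1.14 in T-REX, and ran from 0.843 to 1.11 with light alone, 0.748 to 0.934 with the probe alone and 0.737 to 0.964 in DMSO. SESN2 counts thus exceeded SESN3 counts in all 4 T-REX libraries, and also in light alone replicate 1 (1.11). CPM is not scaled to exon length (3.45 kb for SESN2, 10.6 kb for SESN3), so a ratio over 1 does not rank their transcripts. At 12 h the mean ratio was 0.964 ± 0.0891 in T-REX, 0.653 ± 0.0805 with light alone, 0.757 ± 0.171 with the probe alone and 0.553 ± 0.156 in DMSO (SD, n = 4), and T-REX overlapped only the probe alone group. At 6 h T-REX (0.924 ± 0.158) overlapped all 3 controls. The ratio was chosen after its values were seen and is given with no test.

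**Figure D2:**
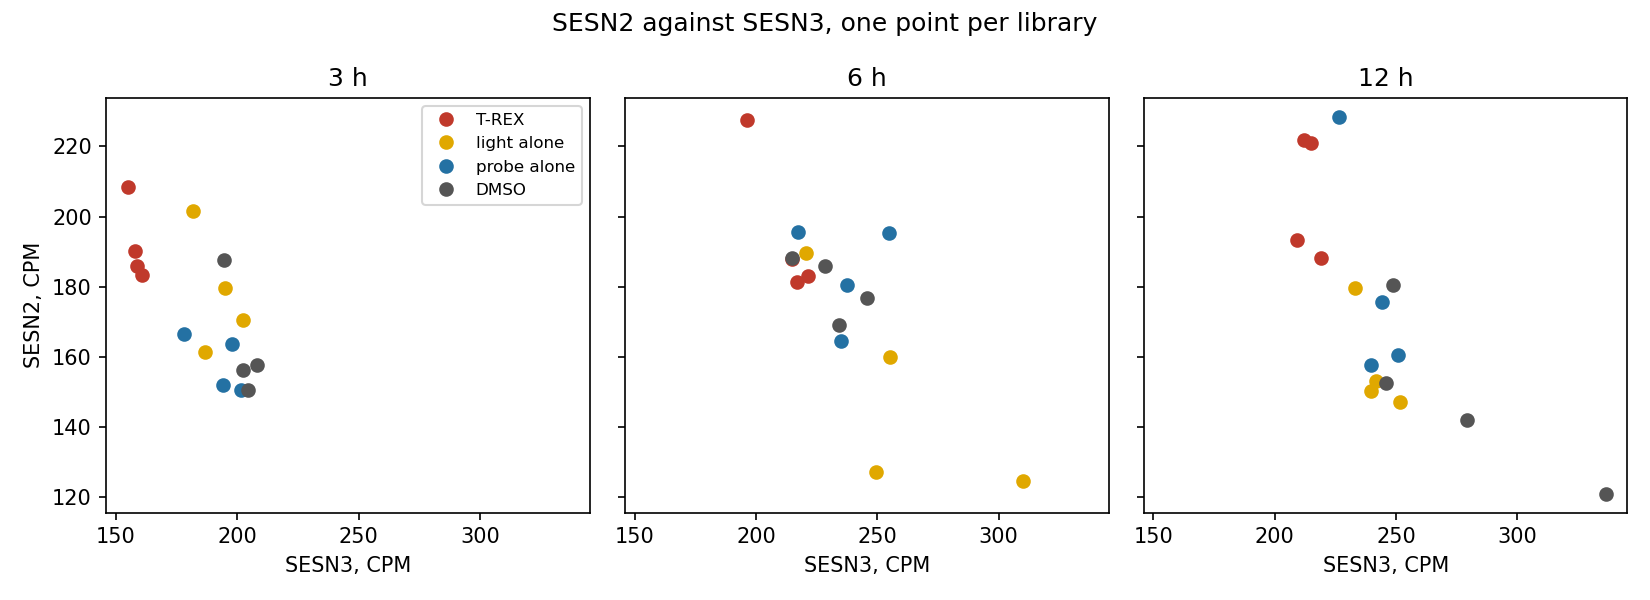
SESN2 (y axis, CPM) against SESN3 (x axis, CPM), 1 point per library and 1 panel per time; the axes do not start at 0. At 3 h the T-REX libraries sit at 155.1 to 160.8 CPM of SESN3, apart from all controls, and the light alone library at 6 h (310.0 CPM) and the DMSO library at 12 h (336.4 CPM) lie far to the right with little SESN2.

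SESN1 (ENSG00000080546), the sestrin best known as a p53 target, was not called between T-REX and any control. At 3 h its group means were 52.6 ± 2.44 CPM in T-REX and 51.6 to 52.4 CPM in the controls, and over the 9 comparisons its log2 fold change ran from -0.13 to 0.03 with no call. At 12 h the T-REX libraries (84.73 to 92.42 CPM) lay just below all DMSO libraries (92.57 to 103.5 CPM; -0.11, edgeR adjusted p = 0.186). That difference was called with the deposited factors of unwanted variation as covariates (-0.11, adjusted p = 0.0466). The 3 sestrins therefore showed a fall (SESN3), a rise against DMSO at 12 h (SESN2) and no call (SESN1) in the same libraries.

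DDIT4 (ENSG00000168209), an inhibitor of mTORC1 induced by ATF4, HIF-1 and glucocorticoids, varied widely within groups. At 3 h it read 19.67, 19.4, 31.4 and 26.2 CPM in T-REX, and group means were 19.1 with light alone, 27.0 with the probe alone and 24.5 in DMSO. The log2 fold changes at 3 h were 0.34, -0.14 and -0.02, and at 12 h they were -0.27, -0.32 and -0.10, each with an adjusted p over 0.05. T-REX at 12 h held 27.59 to 36.41 CPM, within or below the light alone (32.52 to 42.44) and probe alone (35.22 to 41.56) ranges, while DMSO replicate 3 was at 22.22 CPM. Without that library the difference from the probe alone was called (-0.32, adjusted p = 0.0297), and that from light alone was not (-0.27, adjusted p = 0.0539). Both were called when only the pair of groups compared was fitted (adjusted p = 0.0227 for the probe alone, 0.0354 for light alone). The same held with the deposited factors of unwanted variation as covariates (adjusted p = 0.0164 and 0.0364).

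TSC1 (ENSG00000165699), the stabilizing subunit of the complex, was the steadiest gene of the set, at 110.8 to 133.2 CPM over all libraries. Its log2 fold changes in T-REX ran from -0.05 to 0.12 with none called, and the difference from DMSO at 12 h was called without DMSO replicate 4 (0.15, adjusted p = 0.041) and with the deposited factors of unwanted variation as covariates (0.12, adjusted p = 0.0159). TSC2 (ENSG00000103197), the subunit that acts on Rheb, had a wide spread in T-REX at 3 h, with 43.11, 57.87, 77.01 and 86.89 CPM around control means of 63.3 to 70.4 CPM. No comparison of TSC2 was called, its standard error at 3 h being 0.167. The genes PKD1 and NTHL1 lie on the opposite strand and share exonic bases with TSC2. PKD1 was as uneven in the same group, at 8.24 to 47.7 CPM. It was also uneven with light alone at 3 h (12.2 to 46.0 CPM), where TSC2 had a narrow spread (65.47 to 76.58 CPM). The part of PKD1 in the TSC2 counts was not tested.

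The genes for the 2 eIF4E-binding proteins moved apart at 12 h. EIF4EBP1 (ENSG00000187840), which encodes 4E-BP1, stood at 26.01, 20.59, 20.28 and 23.03 CPM in T-REX at 12 h. It stood at 17.26, 17.47, 15.11 and 15.45 CPM with light alone, 21.18, 18.75, 18.88 and 17.38 CPM with the probe alone, and 21.67, 16.13, 14.7 and 15.05 CPM in DMSO. T-REX lay above all light alone libraries and overlapped the other controls at 1 library each.

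EIF4EBP1 rose against light alone (0.47 ± 0.11, 1.38-fold, adjusted p = 0.0282) and DMSO (0.41 ± 0.11, adjusted p = 0.0179), and the difference from the probe alone did not pass (0.24 ± 0.11, adjusted p = 0.418). The study itself lists EIF4EBP1 as upregulated at 12 h against light alone and DMSO in these same libraries, so its calls here are not independent evidence. The call against DMSO was lost without T-REX replicate 1 (0.34, adjusted p = 0.089) or DMSO replicate 2 (adjusted p = 0.0504), and when only those groups were fitted (adjusted p = 0.096). That against light alone did not survive leaving out T-REX replicate 1 (0.39, adjusted p = 0.182), T-REX replicate 4 (adjusted p = 0.0811) or any of light alone replicates 1 (adjusted p = 0.0602), 2 (adjusted p = 0.0531), 3 (adjusted p = 0.137) and 4 (adjusted p = 0.0969). At 3 h and 6 h its log2 fold changes ran from -0.05 to 0.40 with no call. Counts per gene do not separate its transcripts, so changes in splicing are outside these values.

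EIF4EBP2 (ENSG00000148730), which encodes 4E-BP2, stood at 363.9, 416.5, 397.9 and 379.0 CPM in T-REX and 466.8, 469.5, 567.7 and 475.4 CPM in DMSO at 12 h. It fell against DMSO, where the groups did not overlap (-0.35 ± 0.059, 0.786-fold, adjusted p = 0.000586), also without DMSO replicate 3 (-0.27, adjusted p = 0.000114). Against light alone, at 426.0 to 470.6 CPM, the libraries did not overlap either, but the test was not passed (-0.20, adjusted p = 0.0883). The same difference was called without DMSO replicate 3 (adjusted p = 0.002), when only those groups were fitted (adjusted p = 0.000256), by DESeq2 (adjusted p = 0.0474) and with the deposited factors as covariates (adjusted p = 0.000257). The probe alone gave 394.3, 379.2, 386.1 and 409.4 CPM, within the T-REX range (-0.01, adjusted p = 0.961). The probe without light was itself below DMSO by -0.33 ± 0.059 (adjusted p = 0.00293; without DMSO replicate 3, -0.26, adjusted p = 0.000827), so the lower EIF4EBP2 at 12 h was measured with and without light on the probe.

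RPS6KB1 (ENSG00000108443), which encodes S6K1, was not called in any T-REX comparison. At 3 h it read 172.6, 171.7, 151.8 and 148.5 CPM in T-REX, with a group mean of 161.1 ± 12.8 CPM against 167.2 with light alone, 175.3 with the probe alone and 177.9 in DMSO. Its log2 fold changes over the 9 comparisons ran from -0.14 to 0.06. These counts cover the gene as a whole and do not separate its splice forms.

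NIBAN1 (ENSG00000135842), a stress-induced gene whose product modulates S6K1 and 4E-BP1 phosphorylation, was higher in T-REX than in every control library at all 3 times, from low counts. At 3 h it stood at 3.65, 3.52, 3.28 and 4.33 CPM in T-REX, and the highest of the 12 controls was at 3.23 CPM. At 6 h it stood at 4.10, 3.63, 4.24 and 3.68 CPM, and the highest control was at 3.11 CPM. At 12 h the T-REX libraries read 6.83, 5.47, 4.47 and 5.62 CPM, and the controls 3.11 to 3.37 CPM with light alone, 2.49 to 3.91 CPM with the probe alone and 1.98 to 3.81 CPM in DMSO.

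The log2 fold changes of NIBAN1 against light alone, probe alone and DMSO were 0.32, 0.34 and 0.50 at 3 h, 0.54, 0.54 and 0.66 at 6 h, and 0.79 ± 0.189, 0.76 ± 0.189 and 0.81 ± 0.19 at 12 h. It rose at 12 h against light alone (1.73-fold, adjusted p = 0.0302) and DMSO (1.76-fold, adjusted p = 0.00744), just missed the threshold against the probe alone (adjusted p = 0.0598), and was not called at 3 h (adjusted p = 0.0643 to 0.349) or 6 h (adjusted p = 0.072 to 0.363). The T-REX libraries lay all above or all below the 12 controls for 2.04% of genes at 3 h, for 0.81% at 6 h and, at 12 h, for 2.07%. Of the 10 genes these were NIBAN1 (above) and SESN3 (below) at 3 h, NIBAN1 at 6 h, and both again at 12 h.

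For NIBAN1 the light alone comparison was no longer called without light alone replicate 1 (adjusted p = 0.0785), 2 (adjusted p = 0.083), 3 (adjusted p = 0.103) or 4 (adjusted p = 0.0886), or without T-REX replicate 1 (0.68, adjusted p = 0.176), 2 (adjusted p = 0.068) or 4 (adjusted p = 0.0742). The call against DMSO held without any 1 library (log2 fold change 0.64 to 0.91, highest adjusted p = 0.043) and was lost when only those groups were fitted (0.82, adjusted p = 0.0508). The difference from the probe alone at 12 h was called without DMSO replicate 1 (adjusted p = 0.0165), 3 (adjusted p = 0.0198) or 4 (adjusted p = 0.0494), probe alone replicate 4 (adjusted p = 0.0381) or T-REX replicate 3 (adjusted p = 0.0484). It was also called when only those groups were fitted (0.76, adjusted p = 0.0129) and with the deposited factors as covariates (0.75, adjusted p = 0.0033). The difference from DMSO at 6 h was called without light alone replicate 3 (adjusted p = 0.0484).

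**Figure D3:**
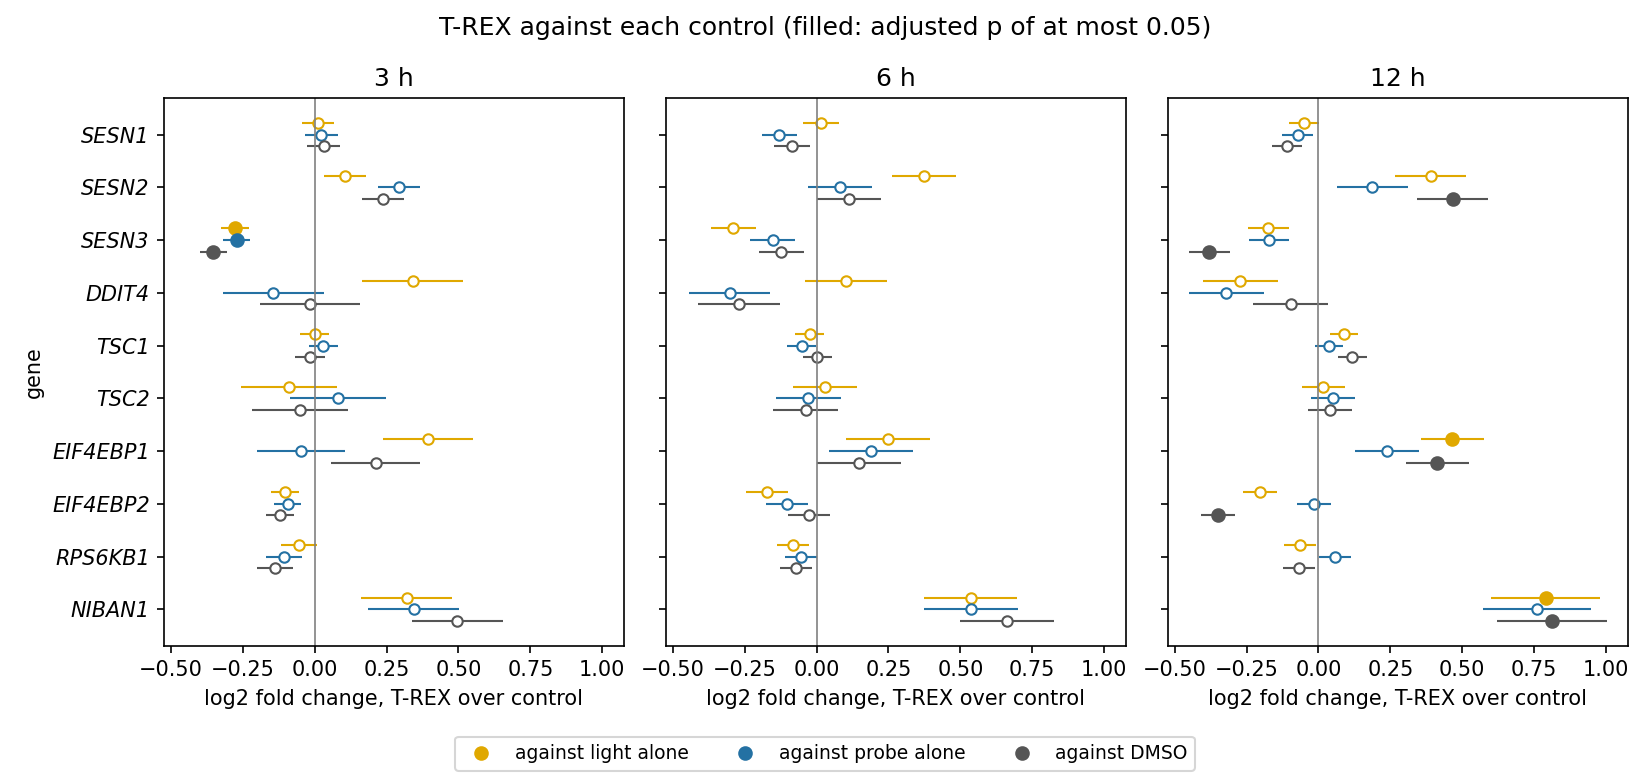
Log2 fold change of T-REX over light alone, probe alone and DMSO (x axis) for each gene (y axis) at 3, 6 and 12 h, from 4 libraries against 4; bars are standard errors, and filled points have an adjusted p of at most 0.05. SESN3 is filled against all 3 controls at 3 h, no gene is filled at 6 h, and at 12 h NIBAN1 and EIF4EBP1 are filled against light alone and DMSO.

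Across the set, 2 of the 10 genes (EIF4EBP1 and NIBAN1, both higher) were called against light alone at 12 h, where 1.29% of all genes were. None of the 10 was called against the probe alone at 12 h by edgeR with all 4 groups fitted and no covariates, where 0.701% of all genes were. At an unadjusted p under 0.05 there were 4, and DESeq2 called 1 (NIBAN1, adjusted p = 0.00916). With only that pair fitted, edgeR called SESN3, DDIT4 and NIBAN1 (adjusted p = 0.0136, 0.0227 and 0.0129), and 389 genes in all. With the deposited factors as covariates it called the same genes (adjusted p = 0.000625, 0.0164 and 0.0033), and 901 in all. Against DMSO at 12 h 5 of the 10 were called, 3 higher (SESN2, EIF4EBP1 and NIBAN1) and 2 lower (SESN3 and EIF4EBP2), where 10.9% of all genes were. EIF4EBP1 and NIBAN1 met the rule of 2 controls at 12 h, as did 1.4% of all genes. Without DMSO replicate 3, 4 of the 10 met it, with SESN3 and EIF4EBP2 added. That library was singled out by its levels of those same genes, and the share of all genes in that refit is not given here.

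At 6 h edgeR, with all 16 libraries and no covariates, called none of the 10 genes, and few genes at all: 0.218% against light alone, 0.109% against the probe alone and 0.415% against DMSO, with 0.136% meeting the rule of 2 controls. At an unadjusted p under 0.05 there were 4 of the 10 against light alone, 3 against the probe alone and 1 against DMSO. DESeq2 called 2 against light alone (SESN2, 0.37, and SESN3, -0.29), 0 against the probe alone and 1 against DMSO (NIBAN1, 0.66). Over all genes it called 153, 57 and 288 in that order. Without light alone replicate 4, edgeR called SESN2 (0.50, adjusted p = 0.00745) and SESN3 against light alone. Without light alone replicate 3, the highest in SESN3 and EIF4EBP2, neither SESN2 (0.30, adjusted p = 0.56) nor EIF4EBP2 (-0.06, adjusted p = 0.854) was called against light alone.

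Between controls, 1 of 90 comparisons of the 10 genes was called (EIF4EBP2 above) and 17 had an unadjusted p under 0.05, against 10 and 34 of 90 for T-REX. These comparisons share libraries. The share of all genes at an unadjusted p under 0.05 is given neither here nor elsewhere, so such counts do not set the 10 genes apart. Over all genes, light alone and DMSO differed in 0.00681% (3 h), 0.00681% (6 h) and 0.0136% (12 h). In the same order, the probe alone and DMSO differed in 0.00681%, 0.0272% and 5.11%, and light alone and the probe alone in 0.232%, 0.0613% and 0.415%. At 12 h these counts hang on the fit. T-REX differed from light alone, the probe alone and DMSO in 189, 103 and 1598 genes when all 4 groups were fitted, and in 1127, 389 and 366 when only the pair compared was, while the probe alone and DMSO differed in 751 and 14.

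Whether the T-REX effect differed between times was tested directly, and none of the 60 member tests passed (smallest adjusted p = 0.242), while 6 had an unadjusted p under 0.05 and DESeq2 called 0. The share of all genes called for 12 h against 3 h was 0.0204% with light alone as the control, 0.0681% with the probe alone and 0.00681% with DMSO, and for 6 h against 3 h it was 0%, 0% and 0.0136%. The larger NIBAN1 difference at 12 h than at 3 h (by 0.47 ± 0.225 against light alone, adjusted p = 0.659) and the turn of DDIT4 (by -0.62 ± 0.233 against light alone, adjusted p = 0.531) are therefore not shown to be changes of the effect.

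Some of these genes changed with time after the reaction in every group. SESN1 stood at 52.6 CPM in T-REX at 3 h, 71.6 at 6 h and 90.1 at 12 h, and in DMSO at 51.6, 75.9 and 97.2 CPM. From 3 h to 12 h it rose 1.71-fold in T-REX (log2 0.78 ± 0.0541, adjusted p = 5.41e-16), 1.79-fold with light alone, 1.81-fold with the probe alone and 1.88-fold in DMSO, and every 12 h library lay above every 3 h library of its group. Neighbouring groups of the same time differed by less than their spread, except DMSO and T-REX at 6 h.

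RPS6KB1 fell in the same interval, to 0.707-fold in T-REX (log2 -0.50 ± 0.0596, adjusted p = 2.34e-09), 0.714-fold with light alone, 0.623-fold with the probe alone and 0.67-fold in DMSO. Its T-REX mean was 161.1 CPM at 3 h, 121.7 at 6 h and 113.9 at 12 h, and no 12 h library reached the lowest 3 h library of its group. SESN3 rose in all 4 groups, 1.35-fold in T-REX, 1.26-fold with light alone, 1.25-fold with the probe alone and 1.37-fold in DMSO (1.28-fold without replicate 3 at 12 h), with adjusted p of at most 0.000196. DDIT4 rose with light alone (1.98-fold), the probe alone (1.44-fold) and DMSO (1.36-fold, adjusted p = 0.0279), and not past the threshold in T-REX (1.29-fold, adjusted p = 0.0661).

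NIBAN1 was called for time in T-REX (1.52-fold, adjusted p = 0.00147) and not with light alone (1.10-fold), the probe alone (1.13-fold) or DMSO (1.22-fold), a difference between groups that the tests above did not pass. EIF4EBP2 was called in DMSO (1.18-fold, adjusted p = 0.0022; without DMSO replicate 3 at 12 h, 1.12-fold, adjusted p = 0.0348). In all, 4 of the 10 genes were called in T-REX, light alone and the probe alone and 5 in DMSO, where 41.7%, 39.4%, 42.3% and 38.8% of all genes were, shares near those of the 10 genes. These comparisons were added after the levels were seen. Each time has its own harvest and count table, so the time after the reaction and any difference in handling cannot be told apart.

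**Figure D4:**
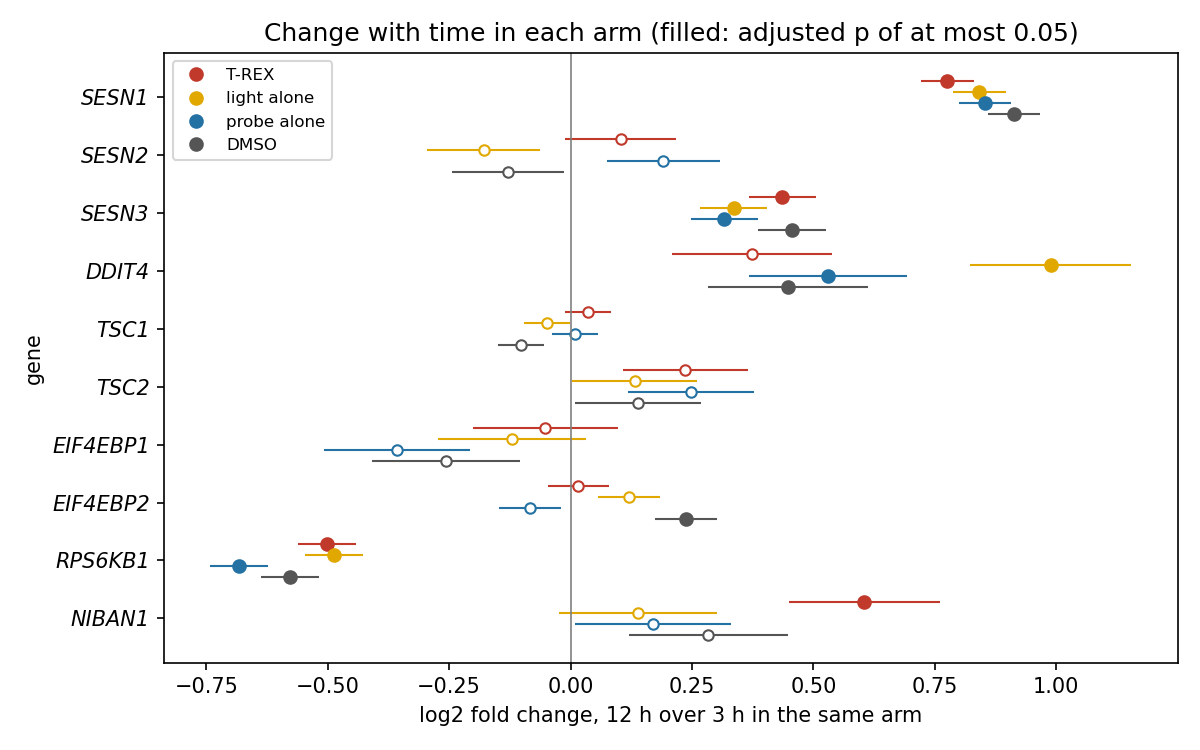
Log2 fold change from 3 h to 12 h within a group (x axis) for each gene (y axis), coloured by group, from 4 libraries against 4 in a fit of all 48; bars are standard errors and filled points have an adjusted p of at most 0.05. SESN1 lies at 0.78 to 0.91 and RPS6KB1 at -0.68 to -0.49 in all 4 groups, and NIBAN1 is filled in T-REX only.

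Few other genes of the mTORC1 pathway met the rule of 2 controls. Of the Rag GTPase and Ragulator genes (13 measured of 13), the TSC, Rheb, AMPK and AKT genes (16 of 17) and the mTORC1 subunits (4 of 5), none met it at any time, and list medians stayed between -0.11 and 0.12 on the log2 scale, where the median of all genes was -0.002 to 0.031. Of the GATOR1, GATOR2 and KICSTOR genes (14 of 15) 1 met it, SEH1L, a GATOR2 and nuclear pore subunit, lower at 3 h (101.5 CPM in T-REX against 124.0 with the probe alone and 125.6 in DMSO, log2 fold changes -0.27 and -0.31). Of the other mTORC1 substrates and translation outputs (13 of 14) 1 met it, LPIN1, a phosphatidate phosphatase held out of the nucleus by mTORC1, higher at 12 h (40.6 CPM against 31.4 with light alone and 30.6 in DMSO, log2 fold changes 0.37 and 0.40).

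Of the upstream regulators named above, lists were made for ATF4, HIF, p53 and FOXO, and they gave a mixed picture. No list of NRF2 targets was examined. Among ATF4 and its regulators and targets (12 of 12 measured), ASNS (asparagine synthetase; 12.7 CPM in T-REX against 7.23 to 7.70 in the controls) and PPP1R15A, which encodes the eIF2α phosphatase subunit GADD34, met the rule at 3 h, both higher. SLC7A11, the cystine importer, met it at 6 h (157.4 against 90.6 to 97.4 CPM), and SLC7A11, ATF4 and the serine synthesis gene PSAT1 at 12 h, all higher. Among HIF targets (11 of 12) all genes that met the rule were lower: KDM3A and PDK1 at 3 h, KDM3A at 6 h, and EGLN3, BNIP3, NDRG1, KDM3A, PDK1 and SLC2A1 at 12 h. BNIP3, a mitophagy receptor, read 36.0 CPM in T-REX and 61.9 to 66.3 CPM in the controls at 12 h. No p53 target (12 of 12) and no FOXO factor (3 of 4) met the rule. Of the line's own markers, IRS4 met it at 6 h and 12 h, lower than light alone and DMSO and level with the probe alone (521.8 against 515.0 CPM at 12 h), and its part in the results above was not tested.

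Over the 12 group means, centred within each time, NIBAN1 ran most like SLC7A11 (Pearson r = 0.978), ZNF460 (0.976), CEBPG (0.945), SLC16A9 (0.939) and NFX1 (0.934), of 10134 genes compared. SESN3 ran most like POU3F2 (0.984), RAP2C (0.983), MACIR (0.983), CD164 (0.975) and ARPC5 (0.973). EIF4EBP1 ran most like ANKRD6 (0.957), SEC63 (0.942), RHOT1 (0.927), SND1 (0.926) and HYOU1 (0.922). Within the set, SESN2 and SESN3 ran opposite ways (r = -0.874), SESN3 and EIF4EBP2 together (0.821) and SESN3 and NIBAN1 opposite ways (-0.804). These values describe 12 means of the same 48 libraries.

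Because NIBAN1 and SESN3 ran apart in T-REX, their promoters are shown, from RefSeq on GRCh38.p14. Both are the 150 bases before the start site, 5′ to 3′ on the gene's strand, which is the minus strand for both. The SESN3 stretch is chr11:95232476-95232625 and the NIBAN1 stretch chr1:184974509-184974658.
SESN3: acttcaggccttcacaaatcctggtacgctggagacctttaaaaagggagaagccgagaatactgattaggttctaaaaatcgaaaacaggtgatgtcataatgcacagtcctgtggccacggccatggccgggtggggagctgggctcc
NIBAN1: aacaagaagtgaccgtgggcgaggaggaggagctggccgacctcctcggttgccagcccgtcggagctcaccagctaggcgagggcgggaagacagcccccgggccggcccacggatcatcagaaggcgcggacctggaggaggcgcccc
The 250 bases before the start were 42.8% G and C in SESN3 and 61.2% in NIBAN1. No motif is in capitals because none of the 4 searched was found in either gene's window of 250 bases before and 50 after the start. They were the C/EBP-ATF response element (TGATGNAA), the antioxidant response element core (TGACNNNGC), the forkhead motif (GTAAACA) and the CLEAR motif (TCACGTGA), each on both strands.

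Of the 10 genes, 9 had a promoter sequence (12 sequences; none for EIF4EBP1). The C/EBP-ATF letters were in 1 of the 12, that of TSC2, and in 3.62% of 35116 promoters. Beyond the set, ASNS, PSAT1, PPP1R15A, ATF4 and CEBPG, the gene of an ATF4 partner protein, were looked up. Of these, only ASNS and CEBPG had a match. Those matches and that of TSC2 are shown with the matching letters in capitals, 20 bases on each side and the gene's own strand. The windows are chr7:97872449-97872496 on the minus strand for ASNS, chr19:33374051-33374098 for CEBPG and chr16:2047855-2047902 for TSC2.
ASNS: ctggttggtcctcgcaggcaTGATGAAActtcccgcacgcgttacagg
CEBPG: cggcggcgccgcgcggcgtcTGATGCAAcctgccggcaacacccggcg
TSC2: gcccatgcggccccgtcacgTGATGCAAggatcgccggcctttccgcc
The antioxidant element core was found for 4 of the 10 genes, SESN1, EIF4EBP2, TSC2 and RPS6KB1, and in 13.3% of all promoters. The CLEAR letters were found in TSC2, overlapping both of its other matches, and in 0.98% of all promoters. The forkhead letters were found in none of the 12 and in 3.42% of all promoters. The matches for SESN1 and RPS6KB1, which were called for time in all 4 groups, are shown in the same way (chr6:109009683-109009731, minus strand, and chr17:59892915-59892963).
SESN1: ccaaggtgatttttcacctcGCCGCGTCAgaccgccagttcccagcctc
RPS6KB1: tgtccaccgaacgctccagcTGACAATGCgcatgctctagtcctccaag
A match describes the letters in the window and was not tested as a site.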

How the data were processed

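Gene counts came from stranded paired-end libraries made after ribosomal RNA depletion and demultiplexed with bcl2fastq, per the labels. For its RNA-seq the study names TopHat, Cufflinks and cutadapt. The program that made the gene counts, its strand setting, the annotation and the build are not given in the sources used here. The authors deposited raw counts per gene, 1 table per time, log2 CPM values scaled per library, and 2 factors of unwanted variation per library as scores, whose estimation is not described. Tables of log2 values with those factors removed were not used.

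The 16 libraries of a time were fitted in edgeR 4.0.16 (R 4.3.3) with TMM scaling, filterByExpr (which removed 0 of 14685 genes), robust quasi-likelihood dispersions and 4 groups. p-values were adjusted within a comparison. Differences of the T-REX effect between times, and 12 h against 3 h, were tested in 1 fit of 48 libraries. Levels use 1 set of TMM factors, and lengths are merged GENCODE 29 exons. Of the genes 13443 have a symbol. The pipeline was tested on simulated data. Alternatives used DESeq2 1.42.0 and limma 3.58.1 (limma-trend on the deposited log2 CPM).

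All 10 genes are described. Other genes are named where they were called with the same sign against 2 or more of the 3 controls, or as the 5 most like such a member. The members and lists were chosen with earlier results of these data known. Pairs of libraries of a group differed by more than counting noise (chi-square per degree of freedom at least 3.15). Replicate numbers are shared by the groups. Same-numbered libraries deviated together, with every correlation over 0.1, in 1 of 18 pairs of groups, T-REX and the probe alone at 6 h (0.1004 to 0.474).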

Additional observations from a re-analysis of the deposited data

Results flagged for a closer look

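In 8 of 120 groups of 4 libraries, 1 library lay far from the other 3 by Dixon's test, where chance alone gives about 1 in 20. The values are in CPM. EIF4EBP2 was high in DMSO replicate 3 at 12 h (567.7, the next being 475.4) and low in DMSO replicate 3 at 6 h (364.8, the next being 413.1). The first of these is the library in which SESN3 was also highest, and its effect on the calls is given with the results. SESN1 was low in probe alone replicate 2 at 6 h (71.88, the next being 80.05) and in T-REX replicate 3 at 12 h (84.73, the next being 91.67). SESN2 was high in T-REX replicate 4 at 6 h (227.4, the next being 187.9). TSC1 was low in T-REX replicate 4 at 3 h (115.4, the next being 127.2). RPS6KB1 was high in T-REX replicate 1 at 6 h (125.1, the next being 120.8), and NIBAN1 in light alone replicate 3 at 6 h (2.823, the next being 2.666), both in groups with a narrow spread.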

How the results depend on the processing

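Over 2070 refits of single genes, none changed the sign of a called value; 29 lost a call and 58 gained one. RLE factors, no filter and limma-trend left each count of called members within 1.5 times its value. With the 2 deposited factors as covariates, the members called (light alone, then probe alone, then DMSO as the control) numbered 3, 2 and 5 at 3 h, 3, 1 and 2 at 6 h, and 6, 3 and 7 at 12 h. Of 14685 genes in all, 1733, 2551 and 3061 were called in this setting at 3 h. At 6 h these were 1202, 257 and 1048, and at 12 h 1266, 901 and 3925. The rule of 2 controls was then met by 2, 1 and 6 members, and the calls between controls also went up, to 4, 7 and 9 at the 3 times. With only the pair of groups fitted, the counts against light alone and probe alone were 0 and 0 at 3 h and 6 and 3 at 12 h, that against DMSO was 3 at 12 h, and the rule was met by 0 and 5 members. Over all genes these fits called 3 and 3 at 3 h, and 1127, 389 and 366 at 12 h. DESeq2 called 2 against probe alone and 2 against DMSO at 3 h (with 2 by the rule), 2 against light alone and 1 against DMSO at 6 h, and 1 against probe alone at 12 h. Over all genes it called, in those comparisons, 623 and 1200 at 3 h, 153 and 288 at 6 h, and 257 at 12 h. The cause was not tested.

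With each library left out in turn, the counts against light alone, probe alone and DMSO ranged over 0 to 1, 0 to 2 and 1 to 2 at 3 h, 0 to 2, 0 to 0 and 0 to 1 at 6 h, and 0 to 4, 0 to 3 and 3 to 6 at 12 h. The rule was met by 1 to 2 members at 3 h and 0 to 4 at 12 h, and calls between controls numbered 0 to 1 at 6 h and 1 to 3 at 12 h. Libraries sharing a replicate number deviated together in 1 of 18 pairs of groups (over all pairs, correlations -0.636 to 0.572, median 0.00177, 31 of 72 over 0.1; 25 of 72 correlated best with their own number). This was T-REX and the probe alone at 6 h, where all 4 correlated best with their own number and 0 members were called with or without the replicate block. With the replicate block, SESN2 was called against light alone at 12 h (0.39, adjusted p = 0.00391), 2 calls between controls were made at 12 h and 3 members were called for time in DMSO, and no other count moved by over 1.5 times. Depth limits NIBAN1 most, at 59 counts in its shallowest library.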
